A study of Mus musculus with 12 samples.

Results

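The nuclear receptors and their coregulators were followed in the prostate of wild-type mice and of mice labelled as Med1 knockouts. The set held 42 genes, 30 receptors and 12 coregulators, of 18194 genes read by the arrays. Its members were given as a list of gene names, and each was represented by its brightest probe set, the group of short probes for 1 transcript with the highest mean over all arrays. The 4 groups of 3 arrays were wild-type ventral, knockout ventral, wild-type lateral and knockout lateral prostate, all at 16 weeks of age. The sources used here give neither the strain nor how or in which cells Med1 was deleted. They also leave unsaid if each array stands for its own animal, so the p-values cover the spread among these arrays alone, and that spread may be technical.

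Nuclear receptors are transcription factors that bind DNA through a zinc finger domain, and many of them are switched by a small lipid-soluble ligand such as a steroid, a thyroid hormone, a retinoid or an oxysterol. A receptor with its ligand draws in coactivators, among them the p160 proteins Ncoa1 to Ncoa3, the acetyltransferases Crebbp and Ep300 and the methyltransferase Carm1. Med1 is the subunit through which many receptors contact the Mediator complex and RNA polymerase II. Orphan receptors such as the NR4A family have no known natural ligand and act mainly through how much of them is made. The prostate depends on steroid signalling, and its stroma and epithelium carry different receptors. The androgen receptor was not analysed here.

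The NR4A promoters are shown because this family held the member with the largest genotype difference and because its genes are classic targets of cyclic AMP signalling. The windows are the 250 bases before the start of each gene (RefSeq, GRCm38.p6), at chr15:101266596-101266845 on the plus strand for Nr4a1, chr2:57124004-57124253 on the minus strand for Nr4a2 and chr4:48045055-48045304 on the plus strand for Nr4a3. Capitals mark TGACG, the half-site of the cyclic AMP response element, searched on both strands, so that it reads CGTCA where it lies on the other strand.
Nr4a1: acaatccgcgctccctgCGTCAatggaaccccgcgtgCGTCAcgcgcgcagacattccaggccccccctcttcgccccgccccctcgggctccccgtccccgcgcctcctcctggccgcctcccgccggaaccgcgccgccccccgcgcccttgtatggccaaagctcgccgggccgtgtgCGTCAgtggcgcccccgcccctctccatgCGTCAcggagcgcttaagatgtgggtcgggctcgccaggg
Nr4a2: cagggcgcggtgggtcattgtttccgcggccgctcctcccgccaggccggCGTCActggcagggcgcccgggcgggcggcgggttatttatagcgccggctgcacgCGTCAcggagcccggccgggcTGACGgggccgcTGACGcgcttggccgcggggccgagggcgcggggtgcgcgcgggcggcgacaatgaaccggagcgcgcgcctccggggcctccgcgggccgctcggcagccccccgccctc
Nr4a3: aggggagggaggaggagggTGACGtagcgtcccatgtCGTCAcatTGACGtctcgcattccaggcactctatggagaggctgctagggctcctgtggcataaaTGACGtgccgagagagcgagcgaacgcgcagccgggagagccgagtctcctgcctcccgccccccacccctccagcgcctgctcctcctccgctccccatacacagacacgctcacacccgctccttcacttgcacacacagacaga

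Each of these windows held 4 half-sites. In Nr4a3 they began 231, 213, 205 and 147 bases before the start. Over 32851 windows of this length, 17.8% held TGACG and 0.688% held it 3 or more times. A window was found for 36 of the 42 members. Of their 57 windows (a gene can have several starts), 13 or 22.8% held TGACG, and the 3 that held it 3 or more times were those of Nr4a1, Nr4a2 and Nr4a3. The full palindrome TGACGTCA, which contains the half-site, was in 0 of the 57 and in 1.55% of all windows. AGGTCA, the half-site of many nuclear receptors, was in 7 of the 57 (12.3%) and in 14% of all windows, and in 0 of the 3 shown. These matches are letters in a window and show no binding.

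All values are log2 signals. A difference of 1 is a doubling, and a gene passed at a limma adjusted p under 0.05 over all genes. The ventral arrays had medians of 6.39 to 6.43 and the lateral arrays of 6.05 to 6.06. The spread over arrays of the sorted values was 0.0493 among ventral, 0.0786 among lateral and 0.388 among all arrays, so genotypes were compared within a lobe. Med1 signal was lower in the ventral knockout arrays (8.90, 8.99 and 8.68) than in the wild-type ones (9.48, 9.52 and 9.29), a difference of -0.57 ± 0.12 (SE; adjusted p = 0.0119). In the arrays labelled lateral knockout it was 8.40, 8.34 and 8.44 against 8.58, 8.74 and 8.23 (-0.13, adjusted p = 0.622). This probe set, the brightest of 7 for Med1, did not separate the lateral genotypes, and the others are not given here. Luminal epithelial markers were high in all groups, at mean signals of 11.90 to 12.53 over 7 genes, and 1 of the 7 was lower in the ventral knockout. In the ventral lobe 6 of 10 smooth muscle markers and 6 of 10 fibroblast markers were higher in the knockout, and in the lateral lobe 4 and 6 of them were lower, for example Pdgfra at 0.67 and -0.75. The 6 seminal vesicle genes averaged 3.81 to 5.52 in wild-type ventral, 4.25 to 4.60 in knockout ventral, 11.41 to 11.50 in wild-type lateral and 7.73 to 9.26 in knockout lateral arrays, with wild-type ventral replicate 3 the highest ventral and knockout lateral replicate 3 the lowest lateral array. Of the other markers, 1 of 7 leukocyte genes was higher and 2 of 4 adipocyte genes were lower in the ventral knockout, and 0 of 5 basal, 6 endothelial, 3 nerve and 6 urothelial genes passed. In the lateral lobe 1 basal, 1 leukocyte and 1 nerve marker were lower and 2 urothelial markers were higher. In whole tissue, fewer cells of a type and less RNA per cell cannot be told apart.

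In the ventral prostate, 2 of the 42 members changed with the knockout and both were lower, the coregulator Ncoa4 and the progesterone receptor Pgr. Of all genes, 9.08% passed in this comparison, 3.20% lower and 5.88% higher, so the members' share of 4.76% was not above the background. The median difference of the members was 0.028, beside -0.020 for all genes. At an unadjusted p under 0.05 there were 13 members, but the share of all genes at that mark was not counted, so no excess can be read.

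Ncoa4, first described as a coactivator of the androgen receptor and known as the cargo receptor that takes ferritin to the lysosome, had signals of 11.80, 11.79 and 12.24 in wild-type ventral and of 11.10, 11.16 and 10.83 in knockout ventral arrays. Every wild-type array lay above every knockout array. The difference was -0.91 ± 0.12 (SE, 3 arrays against 3), a 1.88-fold fall with a limma adjusted p of 0.000414. Both probe sets of the gene passed as lower, at -0.91 and -0.86. In the lateral lobe the signals were 10.92, 11.02 and 10.92 in wild type and 11.05, 10.94 and 10.93 in the knockout. These groups overlapped. The lateral difference was 0.02 (adjusted p = 0.957), and the difference between the lobes in the genotype effect was itself past the threshold, at -0.93 ± 0.17 (adjusted p = 0.00435). Without wild-type ventral replicate 3, the highest array, the ventral difference was -0.76 (adjusted p = 0.00128). Smooth muscle and fibroblast markers moved in the opposite direction to Ncoa4 in the ventral lobe, and their part in the result was not tested.

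Genes of the iron pathway, a list of 8 added after the values were seen, were given beside Ncoa4 because of its role in ferritin turnover. Of 7 measured, 1 passed in each lobe and it was the same gene, the iron exporter Slc40a1, which rose by 0.64 in ventral and by 0.80 in lateral prostate. Of all genes, 9.08% passed in ventral and 5.03% in lateral prostate. The ferritin heavy chain Fth1 differed by 0.042 in ventral (adjusted p = 0.766) and by -0.11 in lateral prostate (adjusted p = 0.465).

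Pgr, the progesterone receptor and a classic estrogen target, had signals of 5.33, 5.19 and 5.46 in wild-type ventral and of 4.89, 4.39 and 4.68 in knockout ventral arrays. The groups did not overlap, but the knockout mean of 4.65 was below 4.73, the mark used here for low signal (the lower quartile of all probe sets in the lobe). The difference was -0.68 ± 0.18 (SE), a 1.60-fold fall (limma adjusted p = 0.0332). Its 95% interval ran from -1.06 to -0.29. Only 1 of its 3 probe sets passed, and all 3 were lower. The call was lost when any of wild-type ventral replicates 1, 2 or 3 or knockout ventral replicates 2 or 3 was left out, at adjusted p values of 0.085, 0.0502, 0.115, 0.0954 and 0.0815. Lateral signals were 4.31, 4.12 and 3.57 in wild type and 4.34, 3.87 and 4.09 in the knockout, all below the low mark of 4.52 for that lobe. They overlapped (0.10, adjusted p = 0.812), and the difference between lobes, -0.77, did not pass (adjusted p = 0.0756).

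In the lateral prostate, 2 of the 42 members changed between the groups labelled by genotype and both were lower, the orphan receptors Nr4a3 and Rora. Of all genes 5.03% passed, 3.42% lower and 1.62% higher, and the members' share was 4.76%. The members' median difference was -0.0078 and that of all genes -0.0025. At an unadjusted p under 0.05 there were 10 members, again without a count over all genes to set beside them.

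Nr4a3 (Nor1), an immediate-early orphan receptor, had signals of 8.78, 8.55 and 8.88 in wild-type lateral and of 6.32, 5.99 and 5.91 in the arrays labelled lateral knockout. The wild-type lateral arrays stood above all 9 others, and the gap was wide. The difference was -2.67 ± 0.17 (SE, 3 against 3), a 6.35-fold fall (limma adjusted p = 5.54e-07), and its 3 probe sets all passed, at -1.94, -2.09 and -2.67. In the ventral lobe the signals were 6.01, 5.67 and 6.08 in wild type and 6.63, 6.01 and 6.64 in the knockout. The lowest knockout array lay below the highest wild-type array, and the difference of 0.51 did not pass (adjusted p = 0.083), although it did without knockout ventral replicate 2 (0.72, adjusted p = 0.0112). The difference between lobes in the genotype effect was 3.17 ± 0.24 (adjusted p = 6.23e-06).

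The seminal vesicle genes named above moved with Nr4a3 across the lateral groups, with 4 of 6 lower in the knockout, such as Svs4 at -3.49. Their part in the Nr4a3 result was not tested. Knockout lateral replicate 3 had the lowest seminal vesicle level of that group, and without it the Nr4a3 difference was -2.58 (adjusted p = 6.72e-06).

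The relatives of Nr4a3 did not pass in either lobe. Nr4a1 (Nur77) had signals of 6.33, 6.65 and 6.79 in wild-type ventral, 6.07, 6.08 and 6.39 in knockout ventral, 6.98, 6.81 and 7.17 in wild-type lateral and 6.74, 6.34 and 6.68 in knockout lateral arrays. It was lower on average in the knockout of both lobes, at -0.41 with overlapping arrays in ventral and -0.40 without overlap in lateral prostate (adjusted p = 0.096 and 0.143). Nr4a2 (Nurr1) had signals of 7.56, 7.96 and 8.05 in wild-type ventral, 8.10, 7.77 and 8.43 in knockout ventral, 7.90, 8.42 and 7.58 in wild-type lateral and 7.87, 8.06 and 8.16 in knockout lateral arrays. These overlapped in both lobes, with differences of 0.24 and 0.061 (adjusted p = 0.507 and 0.904), and 1 of 6 Nr4a2 probe sets was higher in the ventral knockout by 0.52. The values of these relatives in every array are given by a choice made after they were seen. Of the 3 genes, whose promoters above carry the same number of half-sites, Nr4a3 alone passed, and the difference between family members was not tested.

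In a list of 18 immediate-early genes added after the values were seen, 2 were lower in the lateral knockout, Fosb by -1.23 (adjusted p = 0.00437) and Jun by -0.33 (adjusted p = 0.0388), and 0 were higher. In the ventral knockout 2 were higher, Egr1 by 0.80 and Ccn1 by 0.59, and 1 was lower, Jun by -0.33. Of all genes, 3.42% were lower and 1.62% higher in the lateral knockout, and 3.20% lower and 5.88% higher in the ventral knockout. Because this list was chosen after the values were seen, no excess can be read from its counts. Fosb is a subunit of the AP-1 transcription factor, as is Jun.

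Rora, the retinoid-related orphan receptor that activates clock genes such as Bmal1, had signals of 8.59, 8.76 and 8.65 in wild-type lateral and of 8.28, 8.16 and 8.14 in knockout lateral arrays. The groups did not overlap. The difference was -0.47 ± 0.08 (SE), a 1.38-fold fall (limma adjusted p = 0.00362). Of its 9 probe sets 4 passed as lower, 7 were negative and 2 positive, and the mean over probe sets differed by -0.30 (adjusted p = 0.0315). In the ventral lobe the signals of 9.05, 9.02 and 8.89 in wild type and 9.01, 9.01 and 9.04 in the knockout overlapped (0.037, adjusted p = 0.821). The difference between lobes was 0.51 ± 0.12 (adjusted p = 0.0148), which the mean over probe sets did not keep (0.27, adjusted p = 0.127). Fibroblast markers, 6 of 10, and smooth muscle markers, 4 of 10, were lower in the same lateral knockout arrays, and their part was not tested.

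Among receptors outside the set, the heme receptors Nr1d1 and Nr1d2 (Rev-erb alpha and beta), which repress the clock genes that Rora activates, were lower in the lateral knockout, at -0.94 ± 0.12 (adjusted p = 0.000325) and -0.72 ± 0.18 (adjusted p = 0.0295). In a list of 14 clock genes added after the values were seen, 3 were lower there, these genes and Dbp (-1.27), and 1 was higher, Cry1 (0.59). Of all genes, 3.42% were lower and 1.62% higher in that comparison. In the ventral lobe 0 of the 14 passed with limma, beside 9.08% of all genes. Because the list was chosen after the values were seen, no excess can be read from these counts. The hour at which tissue was taken is not given in the sources used.

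**Figure D1:**
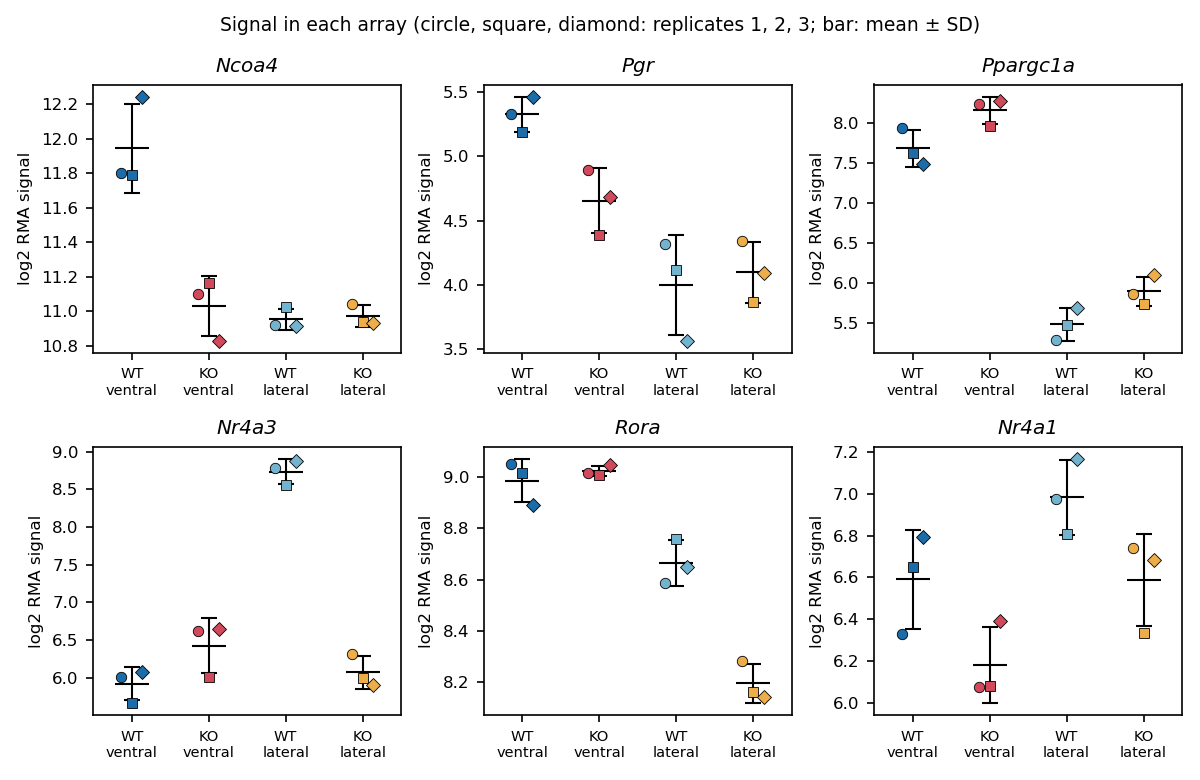
Log2 signal (vertical axis) of Ncoa4, Pgr, Ppargc1a, Nr4a3, Rora and Nr4a1 in each array of the 4 groups, with circles, squares and diamonds for replicates 1, 2 and 3 and bars for the mean ± SD of 3 arrays. In ventral prostate the wild-type Ncoa4 points (11.79 to 12.24) lie above the knockout points, and in lateral prostate the wild-type Nr4a3 points (8.55 to 8.88) do; the vertical axes do not start at 0 and differ between panels.

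The steroid receptors other than Pgr gave no genotype call. The estrogen receptor Esr1 differed by 0.097 in ventral and -0.072 in lateral prostate, and its 3 knockout ventral arrays spread over 7.82, 7.94 and 8.60. The second estrogen receptor Esr2 differed by -0.082 and 0.31, the glucocorticoid receptor Nr3c1 by 0.22 and -0.18, and the mineralocorticoid receptor Nr3c2 by 0.16 and -0.12. Adjusted p values of these 4 lay between 0.156 and 0.858. The estrogen-related receptors Esrra, Esrrb and Esrrg, orphan regulators of mitochondrial genes, were between -0.16 and -0.036 in ventral and between 0.058 and 0.23 in lateral prostate, and none of the 3 passed with limma. Their direction depended on the probe set. In ventral prostate 1 of 2 for Esrra, 1 of 3 for Esrrb and 1 of 3 for Esrrg were positive, at 0.32, 0.081 and 0.31. In lateral prostate 1 of 3 for Esrrg was negative (-0.16), and those of Esrra and Esrrb were all positive.

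The thyroid hormone receptors Thra and Thrb differed by 0.21 and 0.10 in ventral and by -0.011 and 0.34 in lateral prostate. The retinoic acid receptors Rara, Rarb and Rarg lay between -0.17 and 0.0042 in ventral and between -0.038 and 0.13 in lateral prostate. Their heterodimer partners Rxra and Rxrb were at 0.28 and 0.19 in ventral and -0.24 and -0.014 in lateral prostate, and Rxrg was at -0.054 and 0.24. Of 3 Rxra probe sets, 1 was positive and 2 were negative in ventral prostate (-0.14 to 0.28), and 3 were negative in lateral prostate. The vitamin D receptor Vdr, the oxysterol receptor Nr1h3 (LXR alpha) and the bile acid receptor Nr1h4 (FXR) lay between -0.083 and 0.13 in ventral and between 0.12 and 0.16 in lateral prostate. None of these 11 receptors passed with limma in either lobe.

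Among the remaining orphan receptors, the COUP-TF genes Nr2f1 and Nr2f2, which are typical of stroma, were nearest the threshold. Nr2f2 differed by 0.32 in ventral prostate with non-overlapping arrays (adjusted p = 0.0573), 1 of its 6 probe sets passed as higher, and all 6 were positive. Nr2f1 differed by 0.36 (adjusted p = 0.122). In lateral prostate they were at -0.096 and -0.28. The testicular receptors Nr2c1 and Nr2c2, the COUP-TF relative Nr2f6, the liver receptor homolog Nr5a2 and Hnf4a lay between -0.23 and 0.13 in ventral and between -0.26 and 0.12 in lateral prostate, without a call.

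Of the 12 coregulators, only Ncoa4 passed in a genotype comparison. The p160 coactivator Ncoa1 was at 0.27 in ventral prostate, with non-overlapping arrays and an adjusted p of 0.0508, while Ncoa2 and Ncoa3 differed by 0.035 and 0.14. In lateral prostate these 3 were at 0.025, 0.029 and -0.17. The arginine methyltransferase Carm1 was at -0.32 in ventral (adjusted p = 0.0523) and -0.059 in lateral prostate. The acetyltransferases Crebbp and Ep300 were at -0.065 and 0.021 in ventral and -0.17 and 0.0083 in lateral prostate. Ncoa6 and Ncoa7 differed by 0.15 and -0.0055 in ventral and by -0.23 and -0.37 in lateral prostate, the latter with adjusted p values of 0.168 and 0.127. The corepressor Nrip1 (RIP140) was at -0.22 and -0.13, with 6 of 6 probe sets negative in ventral prostate and 1 of 6 called lower in lateral prostate.

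Ppargc1a (PGC-1 alpha), the coactivator of mitochondrial biogenesis, had signals of 7.95, 7.63 and 7.50 in wild-type ventral and 8.25, 7.97 and 8.28 in knockout ventral arrays. In the lateral lobe it had 5.28, 5.48 and 5.69 in wild type and 5.86, 5.73 and 6.09 in the knockout. In both lobes every knockout array lay above every wild-type array. The differences were 0.48 ± 0.14 (limma adjusted p = 0.0513) and 0.41 ± 0.14 (adjusted p = 0.119), so neither passed. All 5 probe sets were positive in both lobes, with 3 called higher in ventral (up to 0.89) and 1 in lateral prostate. With the mean over its probe sets in place of the brightest, the ventral difference was 0.71 (adjusted p = 0.00102) and the lateral 0.52 (adjusted p = 0.0121). Its relative Ppargc1b was at 0.31 and -0.093 (adjusted p = 0.301 and 0.823).

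**Figure D2:**
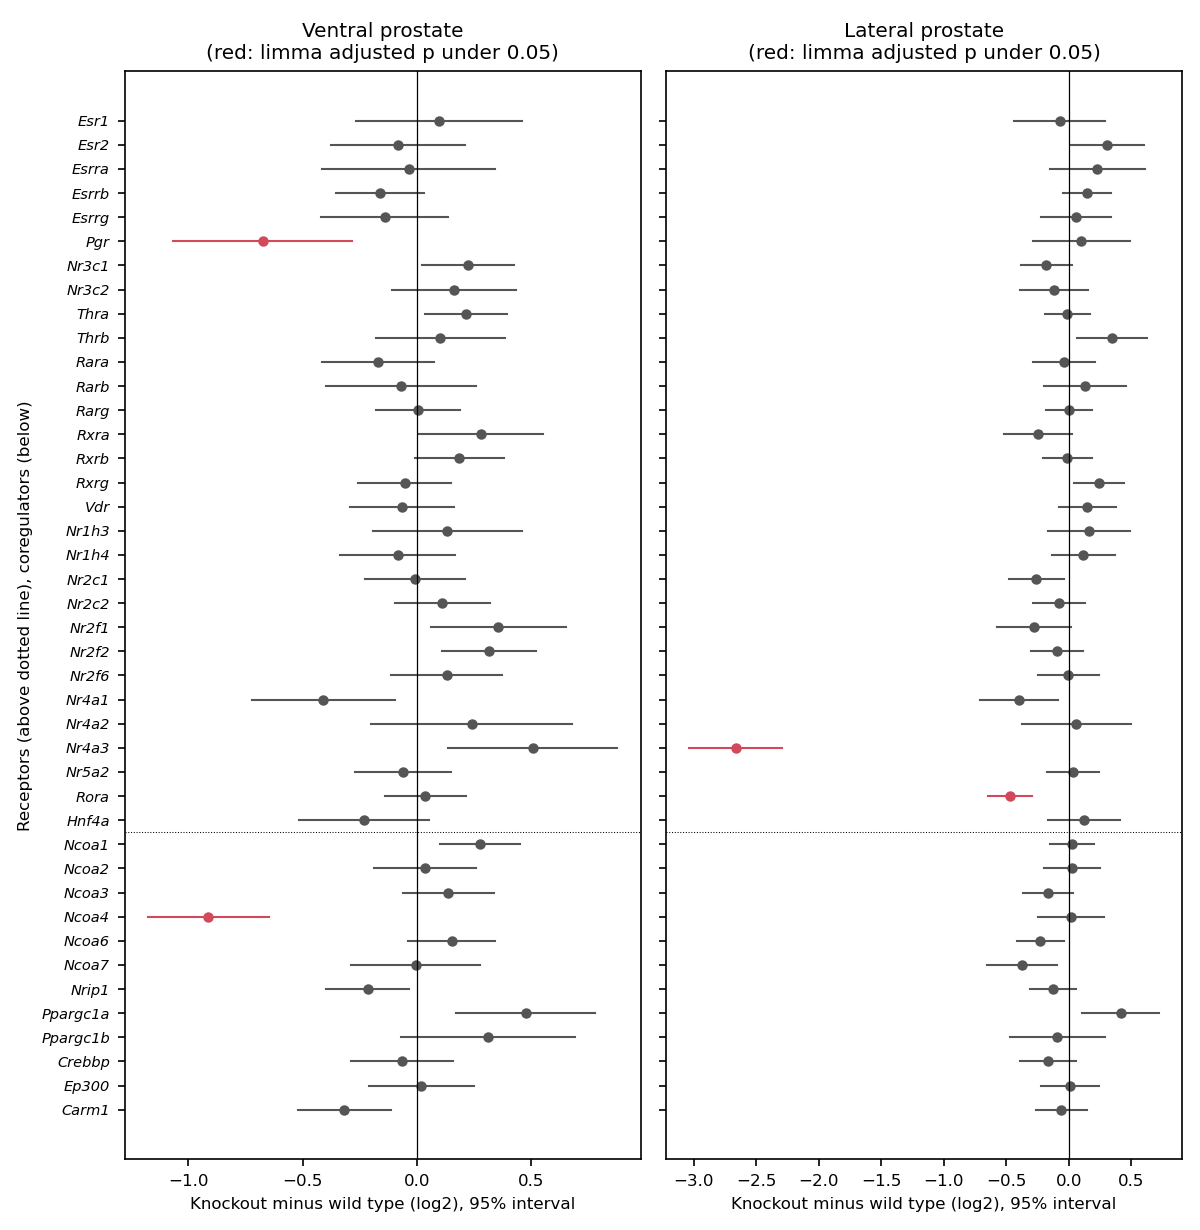
Knockout minus wild type (log2, horizontal axis) for the 42 members in ventral and lateral prostate, with 95% intervals from limma and red for adjusted p under 0.05; the 2 panels have different scales. In each lobe 34 of the 42 intervals lie within 1.5-fold of no change, and Ncoa4 and Pgr in ventral and Nr4a3 and Rora in lateral prostate are red.

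For most members the arrays therefore bounded the genotype difference. The 95% interval lay within 1.5-fold in either direction for 34 of 42 members in each lobe, and within 2-fold for 40 in ventral and 41 in lateral prostate. Arrays of the genotypes did not overlap for 7 members higher and 5 lower in ventral prostate (16.7% and 11.9%), beside 14.9% and 14.6% of all genes (29.5% in either direction). In lateral prostate they did not overlap for 5 members higher and 10 lower, beside 11.2% and 15.7% of all genes (26.9% in either direction). The 10, or 23.8% of the members, were Nr3c1, Rxra, Nr2c1, Nr2f1, Nr4a1, Nr4a3, Rora, Ncoa3, Ncoa6 and Crebbp.

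The 42 members had 118 probe sets, of which 9 (7.63%) passed in ventral prostate, beside 5.71% of all 45101 probe sets. In lateral prostate 9 (7.63%) passed, beside 3.07%, and 4 of the 9 were of Rora and 3 of Nr4a3. By gene the lateral share was 4.76%, beside 5.03%, so the probe set share shows no excess of members. For the difference between lobes 8 (6.78%) passed, beside 5.76%. The ventral calls came from 6 members and the lateral ones from 4, and 27 members had more than 1 probe set. Besides the genes above, 1 of 4 Ncoa2 probe sets was lower in ventral prostate (-0.44) while the brightest was not, so probe sets of a gene did not always move together.

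**Figure D3:**
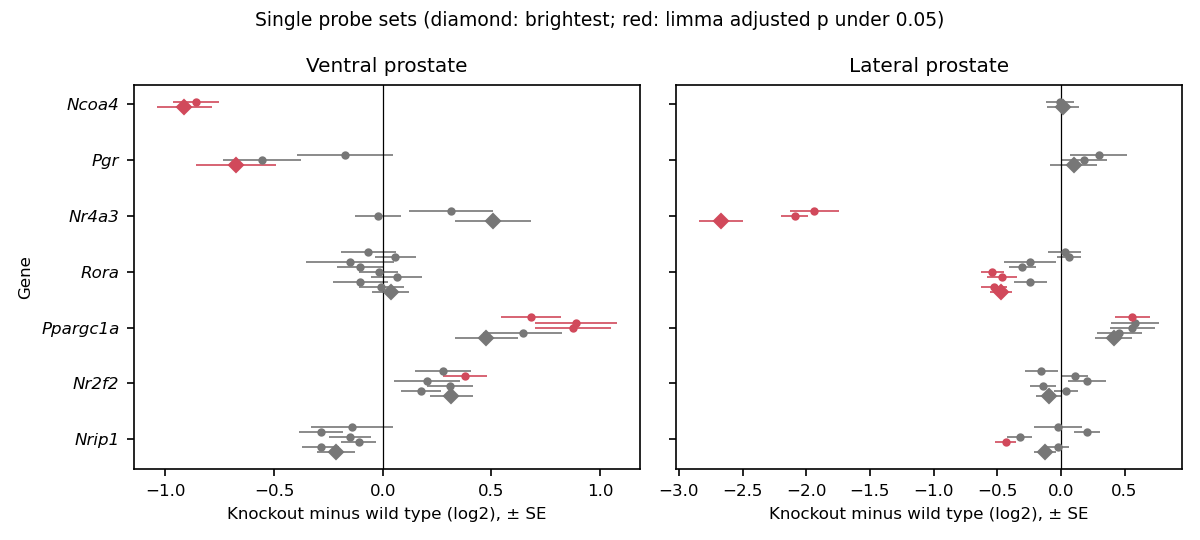
Knockout minus wild type (log2, horizontal axis) of every probe set of Ncoa4, Pgr, Nr4a3, Rora, Ppargc1a, Nr2f2 and Nrip1, with bars for the SE, diamonds for the brightest probe set and red for limma adjusted p under 0.05 over all probe sets. Both Ncoa4 probe sets in ventral and all 3 Nr4a3 probe sets in lateral prostate are red, 4 of 9 for Rora and 1 of 3 for Pgr.

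The genotype effect differed between lobes for 3 of 42 members, Ncoa4, Nr4a3 and Rora, or 7.14% beside 9.31% of all genes. Ventral minus lateral, Nr4a3 and Rora were positive, beside 6.51% of all genes, and Ncoa4 was negative, beside 2.80%. The next members by p were Nr2f1 (0.63, adjusted p = 0.0564), Nr3c1 (0.40, adjusted p = 0.0741), Ncoa6 (0.38, adjusted p = 0.0745), Pgr and Nr2f2 (0.41, adjusted p = 0.0758). Except in Pgr, these near misses were higher in the ventral and lower in the lateral knockout on average.

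The lobes of wild-type mice were compared as a description of where each member is high, and this comparison is confounded with the normalization. The median of all genes was -0.34 log2 units lateral minus ventral in the deposited values and 0.049 after quantile normalization over all arrays. Lobe differences named for members are therefore given in both forms. Those of marker genes and of coregulators outside the set are given in the deposited form alone. In the deposited values 29 of 42 members passed, 3 higher and 26 lower in lateral prostate, beside 68.1% of all genes (12.3% higher and 55.8% lower). After quantile normalization 11 were higher and 16 lower, beside 31.7% and 25.7%. In the knockout 32 passed, 4 higher and 28 lower, beside 67.3% of all genes (14.2% and 53.1%), and after quantile normalization 11 and 17, beside 35.5% and 26.9%.

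The 12 coregulators of the set were mostly lower in the lateral lobe of wild type under both scalings. In the deposited values 11 passed as lower and 0 as higher, with a median of -0.93, beside 55.8% of all genes lower. After quantile normalization 9 passed as lower and 0 as higher, with a median of -0.48, beside 25.7% lower. Of 38 coregulators outside the set, 27 were lower and 3 higher in the deposited values. Their median was -0.37, beside -0.34 for all genes. The 30 receptors had medians of -0.25 and 0.16, with 3 higher and 15 lower in the deposited values and 11 higher and 7 lower after quantile normalization, so that the balance of receptors turned with the scaling. In the knockout the 12 coregulators gave 11 lower and 0 higher in the deposited values, beside 53.1% of all genes lower. After quantile normalization they gave 9 lower and 2 higher, beside 26.9% and 35.5%. The group was not tested against other genes.

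Rxrg, the retinoid X receptor best known from muscle and brain, was at the low end of the lobe differences. Its signals were 8.28, 8.31 and 8.15 in wild-type ventral, 8.28, 8.24 and 8.04 in knockout ventral, 5.33, 5.24 and 5.08 in wild-type lateral and 5.48, 5.41 and 5.49 in knockout lateral arrays. All 6 ventral arrays lay far above all 6 lateral ones. The wild-type difference was -3.03 ± 0.09 (SE), 8.15-fold lower in lateral prostate (limma adjusted p = 1.11e-11), and -2.62 after quantile normalization.

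Nr4a3 was at the high end. Its wild-type difference was 2.82 ± 0.17 (SE), 7.06-fold, and 3.23 after quantile normalization, so it was smaller in size than that of Rxrg in the deposited values and larger after quantile normalization. In the knockout the Nr4a3 difference was -0.35 in the deposited values (adjusted p = 0.0826) and 0.0089 after quantile normalization (adjusted p = 0.966), and neither passed. The wild-type lateral arrays enter both the wild-type lobe difference and the genotype difference above. Ppargc1a was 4.62-fold lower in wild-type lateral prostate (-2.21, quantile -1.81), and the lobes did not overlap in either genotype. The seminal vesicle markers were higher in the lateral arrays (6 of 6 passed), and their part in these lobe differences was not tested.

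Esrrg, an orphan receptor of oxidative tissues that works with Ppargc1a, had signals of 8.77, 8.76 and 9.09 in wild-type ventral, 8.84, 8.79 and 8.58 in knockout ventral, 6.88, 7.05 and 6.92 in wild-type lateral and 6.95, 6.80 and 7.27 in knockout lateral arrays. The lobes did not overlap, and the wild-type difference was -1.93 ± 0.13 (quantile -1.44). Nrip1, which opposes Ppargc1a in energy metabolism, had 11.01, 10.97 and 10.99, then 10.87, 10.70 and 10.76, then 9.29, 9.16 and 9.41, then 9.19, 9.11 and 9.19 in the same order of groups. It too was higher in every ventral array, at -1.70 lateral minus ventral in wild type (quantile -1.16).

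The p160 coactivator Ncoa2 had signals of 9.82, 9.80 and 9.77 in wild-type ventral, 9.90, 10.01 and 9.59 in knockout ventral, 8.40, 8.49 and 8.36 in wild-type lateral and 8.56, 8.40 and 8.37 in knockout lateral arrays. The lobes did not overlap and differed by -1.38 in wild type (quantile -0.85). The orphan receptor Nr2c2 (TR4) had 10.48, 10.54 and 10.46, then 10.57, 10.55 and 10.70, then 9.07, 9.40 and 9.26, then 9.17, 9.05 and 9.28 in that order, with no overlap of the lobes and a difference of -1.25 (quantile -0.69). Pgr was at -1.33 (quantile -1.07), with low signal in the lateral arrays. Its probe sets did not agree. In the deposited values 2 of the 3 were lower in wild-type lateral prostate, at -1.33 and -0.45. The other was higher, at 0.65 (limma adjusted p = 0.0189 over all probe sets). Its mean signals of 2.97 in wild-type ventral and 3.62 in wild-type lateral arrays were below the low marks.

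Esr1, a receptor prominent in prostate stroma, went the other way and is named here by a choice made after its values were seen. Its signals were 7.83, 7.94 and 8.30 in wild-type ventral, 7.82, 7.94 and 8.60 in knockout ventral, 9.18, 9.28 and 9.21 in wild-type lateral and 9.17, 9.06 and 9.23 in knockout lateral arrays. Every lateral array lay above every ventral one, and the wild-type difference was 1.20 ± 0.17, 2.30-fold (adjusted p = 2.4e-05, quantile 1.70). Smooth muscle markers were also higher in the wild-type lateral lobe (10 of 10 passed), and their part was not tested. Nr4a1 was the third member called higher there, at 0.39 (quantile 0.79).

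**Figure D4:**
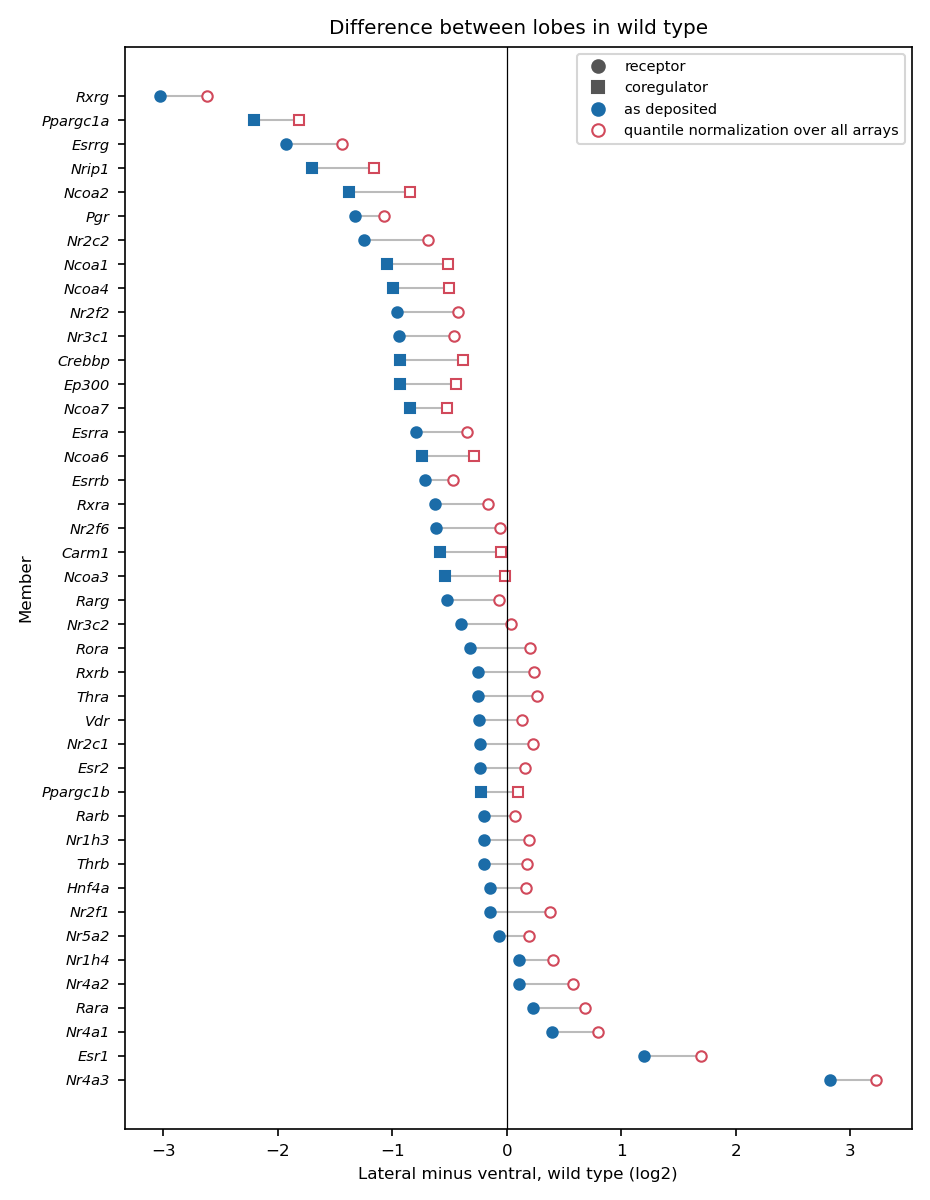
Lateral minus ventral difference in wild type (log2, horizontal axis) for the 42 members ordered by size, with circles for receptors, squares for coregulators, filled symbols for the deposited values and open symbols after quantile normalization over all arrays; no error bars are drawn. Rxrg lies lowest at -3.03 and Nr4a3 highest at 2.82, and every open symbol lies to the right of its filled one.

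The lobe difference of Ncoa4 was -0.99 in wild type (limma adjusted p = 7.27e-06, quantile -0.51) and -0.060 in the knockout (adjusted p = 0.682). In the knockout its call depended on the scaling, since quantile normalization gave 0.49, higher in lateral prostate (adjusted p = 0.00358). These comparisons share arrays with the genotype comparison, and the test of the change is the difference between lobes given above.

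Ligand supply and target genes were read from further lists, which hold a few members too, and are described by counts alone. Of all genes 5.88% were higher and 3.20% lower in the ventral knockout, and 1.62% higher and 3.42% lower in the lateral knockout. Among 23 measured genes of ligand synthesis, transport and breakdown, 2 were higher and 2 lower in the ventral knockout. The retinol uptake receptor Stra6 was at -2.49 ± 0.23 (adjusted p = 2.48e-05) and the retinoic acid hydroxylase Cyp26b1 at -0.57, while the cortisone reductase Hsd11b1 rose by 0.81. The thyroxine deiodinase Dio2, named after its values were seen, rose by 0.93. In the lateral knockout 1 was higher, the retinal dehydrogenase Aldh1a1 (0.80), and 3 were lower, the retinoic acid carrier Crabp2 (-1.23), the retinol dehydrogenase Rdh10 (-1.02) and Hsd11b1 (-0.56). Hsd11b1, common in fibroblasts, thus moved in opposite directions in the lobes, as the fibroblast markers did, and their part was not tested.

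Of 13 glucocorticoid receptor targets, 3 were higher in the ventral knockout (Errfi1 by 0.53, Pdk4 by 0.81 and Nfkbia by 0.41) and 0 lower. In lateral prostate 0 were higher and 2 lower, the kinase Sgk1 (-0.77) and Errfi1 (-0.64), an inhibitor of EGFR signalling. Of 9 estrogen receptor targets, 3 were lower in ventral prostate, Cited1 (-0.72), Myb (-0.59) and Pgr itself, and in lateral prostate 1 was higher, Pdzk1 (0.50). Of 8 retinoic acid receptor targets, Tgm2 was higher in ventral prostate (0.52) and Stra6 and Cyp26b1 lower, and Crabp2 was lower in lateral prostate. The medians of these 3 lists in ventral prostate were 0.15, -0.17 and -0.013, beside -0.020 for all genes. Stromal markers were higher in the ventral and lower in the lateral knockout, as the called glucocorticoid receptor targets were, and their part was not tested.

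Of 10 liver X receptor targets, the cholesterol exporter Abca1 was higher in ventral (0.55) and the lipid carrier Apoe lower in lateral prostate (-0.44). Of 11 targets of the estrogen-related receptors and PGC-1, Pdk4 and Acadm (0.36) were higher and Vegfa (-0.48) lower in ventral prostate, and Mfn2 (-0.30) was lower in lateral prostate. Of 5 thyroid hormone targets, Hr (-0.37) was lower in lateral prostate, and of 4 vitamin D targets the calcium channel Trpv6 was (-1.72 ± 0.19, adjusted p = 7.68e-05).

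Of 14 other receptors measured, 1 was lower in ventral prostate, Ppard (-0.39, adjusted p = 0.0483), beside 3.20% of all genes, and 2 were lower in lateral prostate, the Rev-erb genes, beside 3.42%. Of 38 other coregulators, Smarcd3, a SWI/SNF subunit, rose by 0.76 ± 0.09 in ventral prostate (adjusted p = 0.000177). Tgfb1i1 (Hic-5), a coactivator of stromal smooth muscle, rose by 0.46 in ventral and fell by 0.71 in lateral prostate. Pprc1, a PGC-1 relative, was lower in ventral (-0.49) and Hr in lateral prostate. Tgfb1i1 moved with the smooth muscle markers in both lobes, and their part in its values was not tested.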

How the data were processed

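RNA was measured on single-colour Affymetrix expression arrays. The authors deposited log2 signals from RMA in Affymetrix Expression Console, per the submitters' processing notes, whose versions the sources used here do not give. Of 45101 probe sets, 34958 carried 1 gene symbol in the platform annotation, 932 several and 9211 none, and only the first were named. A RefSeq gene table (GRCm38.p6) gave current symbols by Entrez identifier for 34754 of them. The brightest probe set stood for each of 18194 genes.

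The model was fitted with limma 3.58.1 (R 4.3.3) as 4 group means over 12 arrays (8 residual degrees of freedom, 5.68 prior), with Benjamini-Hochberg adjustment over all genes, and errors are moderated standard errors. The limma step was tested on simulated arrays for the ventral genotype comparison alone. The simulated arrays held no difference between lobes, and the other comparisons and steps were not tested in this way. RMA gives no detection calls, and the low-signal mark (4.73 ventral, 4.52 lateral) was set after values were seen. Arrays give no read depth, so their number limits the precision.

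The members and gene lists were chosen with earlier results of these data known. Values in every array are given for members past the threshold in a genotype comparison or in the difference between lobes, and for the 8 with the largest wild-type lobe difference. Up to 5 genes of smallest p were named per other list and up to 3 per marker list. Same-numbered arrays did not deviate together (correlations of -0.061 to 0.116), so the numbers were not taken as pairs. Such correlations cannot exclude that lobes came from the same animal. Alternatives were other arrays in the fit, replicate blocks, normalizations, filters, probe set handling, variance models, thresholds and each array left out.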

Additional observations from a re-analysis of the deposited data

Results flagged for a closer look

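The genotype difference itself differed between the lobes for 3 members and 21 of the other named genes (limma interaction contrast, adjusted p from 6.23e-06 to 0.0352). Each is given as the ventral minus the lateral difference on the log2 scale. The other genes were named for passing a genotype comparison in these same arrays. Their number and signs follow in part from that choice and cannot be set against the 9.31% of all genes that passed. Among the members Nr4a3 was at 3.17, Rora at 0.51 and Ncoa4 at -0.93. Among other receptors and coregulators Nr1d1 was at 0.78, Smarcd3 at 0.69, Tgfb1i1 at 1.17 and Hr at 0.55. In the ligand list Crabp2 was at 1.27, Aldh1a1 at -0.75, Stra6 at -2.23, Rdh10 at 1.19 and Hsd11b1 at 1.38.

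Among glucocorticoid receptor targets Sgk1 was at 0.85, Errfi1 at 1.18, Pdk4 at 1.06 and Nfkbia at 0.58. Among estrogen and retinoic acid receptor targets Cited1 was at -0.85, Pdzk1 at -0.63 and Tgm2 at 0.60. Among the remaining targets Apoe was at 0.55, Vegfa at -0.56, Mfn2 at 0.52, Acadm at 0.63 and Trpv6 at 1.44. Of the 24 differences 18 were positive and 6 negative. By the same contrast 8 of 10 smooth muscle and 8 of 10 fibroblast markers passed as positive, and their part in these values was not tested.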

How the results depend on the processing

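Ncoa4 in ventral and Nr4a3 and Rora in lateral prostate kept their direction and their call in all 23 alternatives run, with highest adjusted p values of 0.0107, 0.000653 and 0.0315. Pgr was called in 14 of 22, at -0.79 to -0.47, and was lost after quantile normalization (adjusted p = 0.051) among others. The Rora difference between lobes was called in 20 of 22 and lost with the mean of probe sets and without both wild-type ventral replicate 3 and knockout lateral replicate 3 (0.43, adjusted p = 0.0958). The 2 members called in ventral prostate became 5 without the dimmest 40% of genes, 5 with the mean of probe sets, 6 with a trended robust variance, 1 without those 2 arrays, 1 at 0.01 and 8 at 0.1, and 1 to 5 with an array left out. Over all genes, 1652 of 18194 passed in ventral prostate in the main fit. Without the dimmest genes 1759 of 10916 passed, with the mean of probe sets 1706 of 18194, and with the trended robust variance 1934 of 18194. At 0.05 the additional members were Ppargc1a, Ncoa1, Carm1, Nr2f2 and Nr4a3. The 3 called for the difference between lobes became 7, 5 and 9 without the dimmest genes, with the trended robust variance and at 0.1, and 3 to 6 with an array left out. Over all genes, 1693 of 18194 passed for the difference between lobes in the main fit. Without the dimmest genes 1585 of 10916 passed, and with the trended robust variance 1841 of 18194. At 0.01 and 0.1 no count over all genes is given here, so no excess of members can be read. The cause of these changes was not tested. In lateral prostate the count was 2 with any array left out.

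With the replicate number as a fixed block, the ventral count was 3, the lateral 2 and that of the difference between lobes 4, since Nr4a3 in ventral prostate (adjusted p = 0.0271) and Pgr between lobes (adjusted p = 0.0496) passed. Of all 18194 genes, 1492, 848 and 1558 passed with this block in the same order. The sources do not say if arrays of the same number share an animal, and this is given as a description. Over all genes, the 1652 ventral calls became 965 with the ventral arrays alone, 1033 and 941 without wild-type replicates 1 and 3, 1086 without knockout replicate 3, and 860 without both arrays named above. The 916 lateral calls became 588 and 499 without wild-type replicates 2 and 3, 513 without knockout replicate 2, and 583 without both. The 1693 calls for the difference between lobes became 1103 without wild-type lateral replicate 3 and 973 without both.

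Lobe differences depend most on the scaling. In wild type, members called lower in lateral prostate turned in sign after quantile normalization for Thra (0.26), Rxrb (0.24) and Rora (0.21), which then passed as higher (adjusted p = 0.0127, 0.0314 and 0.0315), and for Nr3c2 (0.039), which did not. Thra (0.11), Rxrb (0.11) and Rora (0.039) after median centring and Rora (0.019) with the mean of probe sets turned in sign without a call. In the knockout Carm1 (0.29, adjusted p = 0.00715) after quantile normalization and Pgr (0.28, adjusted p = 0.014) with the mean of probe sets passed as higher. Esrra (0.00059), Thra (0.12), Rxrb (0.13) and Nr2c1 (0.042) after quantile normalization, Carm1 (0.033) after median centring and Esrrb (0.087) with the mean of probe sets turned in sign without a call.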
